A study of Mus musculus with 4 samples.

Results

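The 9 genes described here are markers of type 17 lymphocytes and of gamma-delta T cells: Il17a, Il17f, Rora, Cd163l1, Blk, Il23r, Trdc, Trdv4 and Tcrg-C1. They were taken by symbol from the 32285 genes of the deposited count tables, and all 9 are present there. Single-cell 3' RNA counts were measured in live CD45-positive cells, which are leukocytes, sorted from hearts of C57BL/6 mice after the atria had been removed. Every mouse lacked PD1, the brake on T cell activation that Pdcd1 encodes, from at least 1 chromosome. The deletion was on 1 chromosome (+/-, called Het) or on both (-/-, called KO), so no group was wild type. Pups were operated on at postnatal day 2, and cells were isolated 7 days after that. The 4 groups were Het_sham and KO_sham after a sham operation, and Het_MI and KO_MI after a myocardial infarction (MI). Each group is 1 library. None of the differences below has a replicate check, none was tested, and the number of animals behind a library is not given in the sources used here. Intervals are exact 95% intervals that cover counting error only.

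Gamma-delta T cells carry a receptor of a gamma and a delta chain in place of the alpha-beta receptor. Some of them leave the fetal thymus already set to make interleukin 17 (IL-17), settle in barrier and connective tissues, and respond to IL-23 and IL-1 from myeloid cells without meeting an antigen first. IL-17 acts mostly on stromal and epithelial cells, which then attract neutrophils, and IL-17 from gamma-delta T cells has been described in the infarcted heart of adult mice. Retinoic-acid-related orphan receptors, of which Rora encodes one, are transcription factors that drive the IL-17 program.

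Both cytokine genes lie side by side on chromosome 1 in the GRCm38 build. Il17a spans chr1:20730905-20734496 on the plus strand with 3 exons, and Il17f spans chr1:20777146-20790617 on the minus strand. The gap between them is 42649 bases and holds 0 annotated genes. Il23r, the IL-23 receptor gene, spans chr6:67422932-67491855 on the minus strand. The 250 bases upstream of the RefSeq start (GRCm38.p6) of these 3 genes are shown because the genes share the letters AGGTCA, the core recognised by the orphan receptor family to which the Rora product belongs. Capitals mark AGGTCA or its reverse complement TGACCT, and each sequence reads 5' to 3' on the strand of its gene, ending next to the start site.
Il17a, chr1:20730655-20730904, plus strand: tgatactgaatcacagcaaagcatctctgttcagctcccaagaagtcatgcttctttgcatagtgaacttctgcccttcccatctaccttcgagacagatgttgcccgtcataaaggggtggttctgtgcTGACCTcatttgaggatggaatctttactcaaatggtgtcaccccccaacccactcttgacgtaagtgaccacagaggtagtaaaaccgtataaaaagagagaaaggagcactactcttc
Il17f, chr1:20784271-20784520, minus strand: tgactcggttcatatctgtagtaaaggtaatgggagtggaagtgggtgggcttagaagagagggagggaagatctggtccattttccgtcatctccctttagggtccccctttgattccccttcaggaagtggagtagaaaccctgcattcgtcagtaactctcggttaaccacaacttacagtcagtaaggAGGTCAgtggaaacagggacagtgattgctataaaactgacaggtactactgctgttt
Il23r, chr6:67491856-67492105, minus strand: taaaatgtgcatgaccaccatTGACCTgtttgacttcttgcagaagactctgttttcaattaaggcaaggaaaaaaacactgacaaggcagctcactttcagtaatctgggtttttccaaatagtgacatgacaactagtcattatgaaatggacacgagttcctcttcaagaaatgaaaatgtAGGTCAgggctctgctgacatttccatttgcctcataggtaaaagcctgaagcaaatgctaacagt
The first base of the match lies 120 bases upstream of the start of Il17a and 58 bases upstream of the start of Il17f. In Il23r there are 2 matches, 66 and 229 bases upstream. Windows were held for 5 of the 9 genes, and those of Rora and Cd163l1 contain 0 matches. The same 6 letters occur on either strand in 4607 of 32851 RefSeq promoter windows of this length (14.0%), so a match describes the letters and is no evidence of binding.

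Cells with at least 500 UMIs (unique molecular identifiers, counted RNA molecules), at least 200 genes and no more than 10% of UMIs from mitochondrial genes entered the counts below, 5074 to 7104 per library out of 6157 to 8379 barcodes, with medians of 6559.5 to 8632 UMIs. Ptprc, which encodes CD45, had a UMI in 84.1% to 85.9% of kept cells. Pairs of libraries shared 4 to 13 barcodes, at most 0.217% of the smaller library. Pdcd1 stood at 12.8, 15.8, 25.8 and 80.2 CPM (UMIs scaled to a common total of 1e+06) in mature T cells of Het_sham, KO_sham, Het_MI and KO_MI, highest in a library labelled KO. A 3' tag does not show whether another part of a gene is deleted, so these levels do not check the labels. UMIs of 4 Y-linked genes reached 97.4 to 149 CPM in the other libraries and 0.0144 CPM in KO_MI, so the sex of the KO_MI animals and their group cannot be told apart. Of cells with at least 2 UMIs of Cd3d, Cd3e and Cd3g, 39.5%, 45.3%, 52.8% and 58.8% in the same order also had over 0.5% of their UMIs from 7 myeloid genes. The lowest and highest medians of such droplets were 15275.5 and 20518 UMIs, against 6193 and 8318 in the rest, and they were kept out of the lymphoid classes.

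T cells were sorted into classes by markers that include none of the 9 genes. Mature T cells had Cd3 UMIs and none of Rag1, Rag2, Ptcra, Dntt and Arpp21, genes of developing thymocytes. There were 185, 241, 204 and 266 of them in Het_sham, KO_sham, Het_MI and KO_MI. Type 17 gated T cells are the mature T cells with at least 2 UMIs in sum over a list of 7 type 17 genes, Il1r1, Ccr6 and 5830411N06Rik among them. Over the 4 libraries 92 cells passed this gate.

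Il17a was concentrated in that gate. It had a UMI in 32 of the 92 type 17 gated T cells, against 1 of 125 CD4 T cells, 2 of 234 other T cells, and 0 of 212 CD8 T cells, 196 T cells with NK receptors and 61 group 2 innate lymphoid cells (ILC2). No Il17a UMI was seen in B cells. Taking 3 counts as the limit for a count of 0, the 998 B cells of Het_sham allow a share of cells with a UMI of up to 0.301% and the 745 of KO_MI one of up to 0.403%. In cells of the myeloid class, which should lack the gene, 1 of 3394 cells of KO_sham had an Il17a UMI and the other libraries had 0, at median depths of 6559.5 to 8747 UMIs, against 4247 to 10638.5 UMIs in the gated T cells. The shares in the gate lay far above that background. A thymocyte-like cell of Het_sham held 14 further Il17a UMIs. Il23r had a similar distribution, and 26 gated T cells and 4 other T cells held all of its 36 UMIs in mature T cells.

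Several of the other genes were not confined to T cells. Blk, a Src-family kinase of B cell receptor signalling, had 65.1% of its UMIs in B cells, where 32.2% to 43.2% of cells per library carried it. Rora was found in 7 of 7, 12 of 13, 17 of 17 and 23 of 24 ILC2, and its level there was 756 to 1260 CPM. Myeloid cells held 29.6% of all Rora UMIs at low levels of 16.4 to 28.3 CPM. Trdc, the constant segment of the delta chain, was present in 33.7% to 40.1% of thymocyte-like cells and in 16.4% to 29.7% of T cells with NK receptors. Tcrg-C1, a constant segment of the gamma chain, had UMIs in 3 of 7, 7 of 13, 5 of 17 and 7 of 24 ILC2. Of all UMIs in kept cells, type 17 gated T cells held 66.8% for Il17a, 71.1% for Il23r and 47.8% for Trdv4, but 4.15% for Rora. Mature T cells of any class held 2.20% of the Blk UMIs. As markers of that class in these hearts, Blk and Rora were therefore the least specific.

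**Figure D1:**
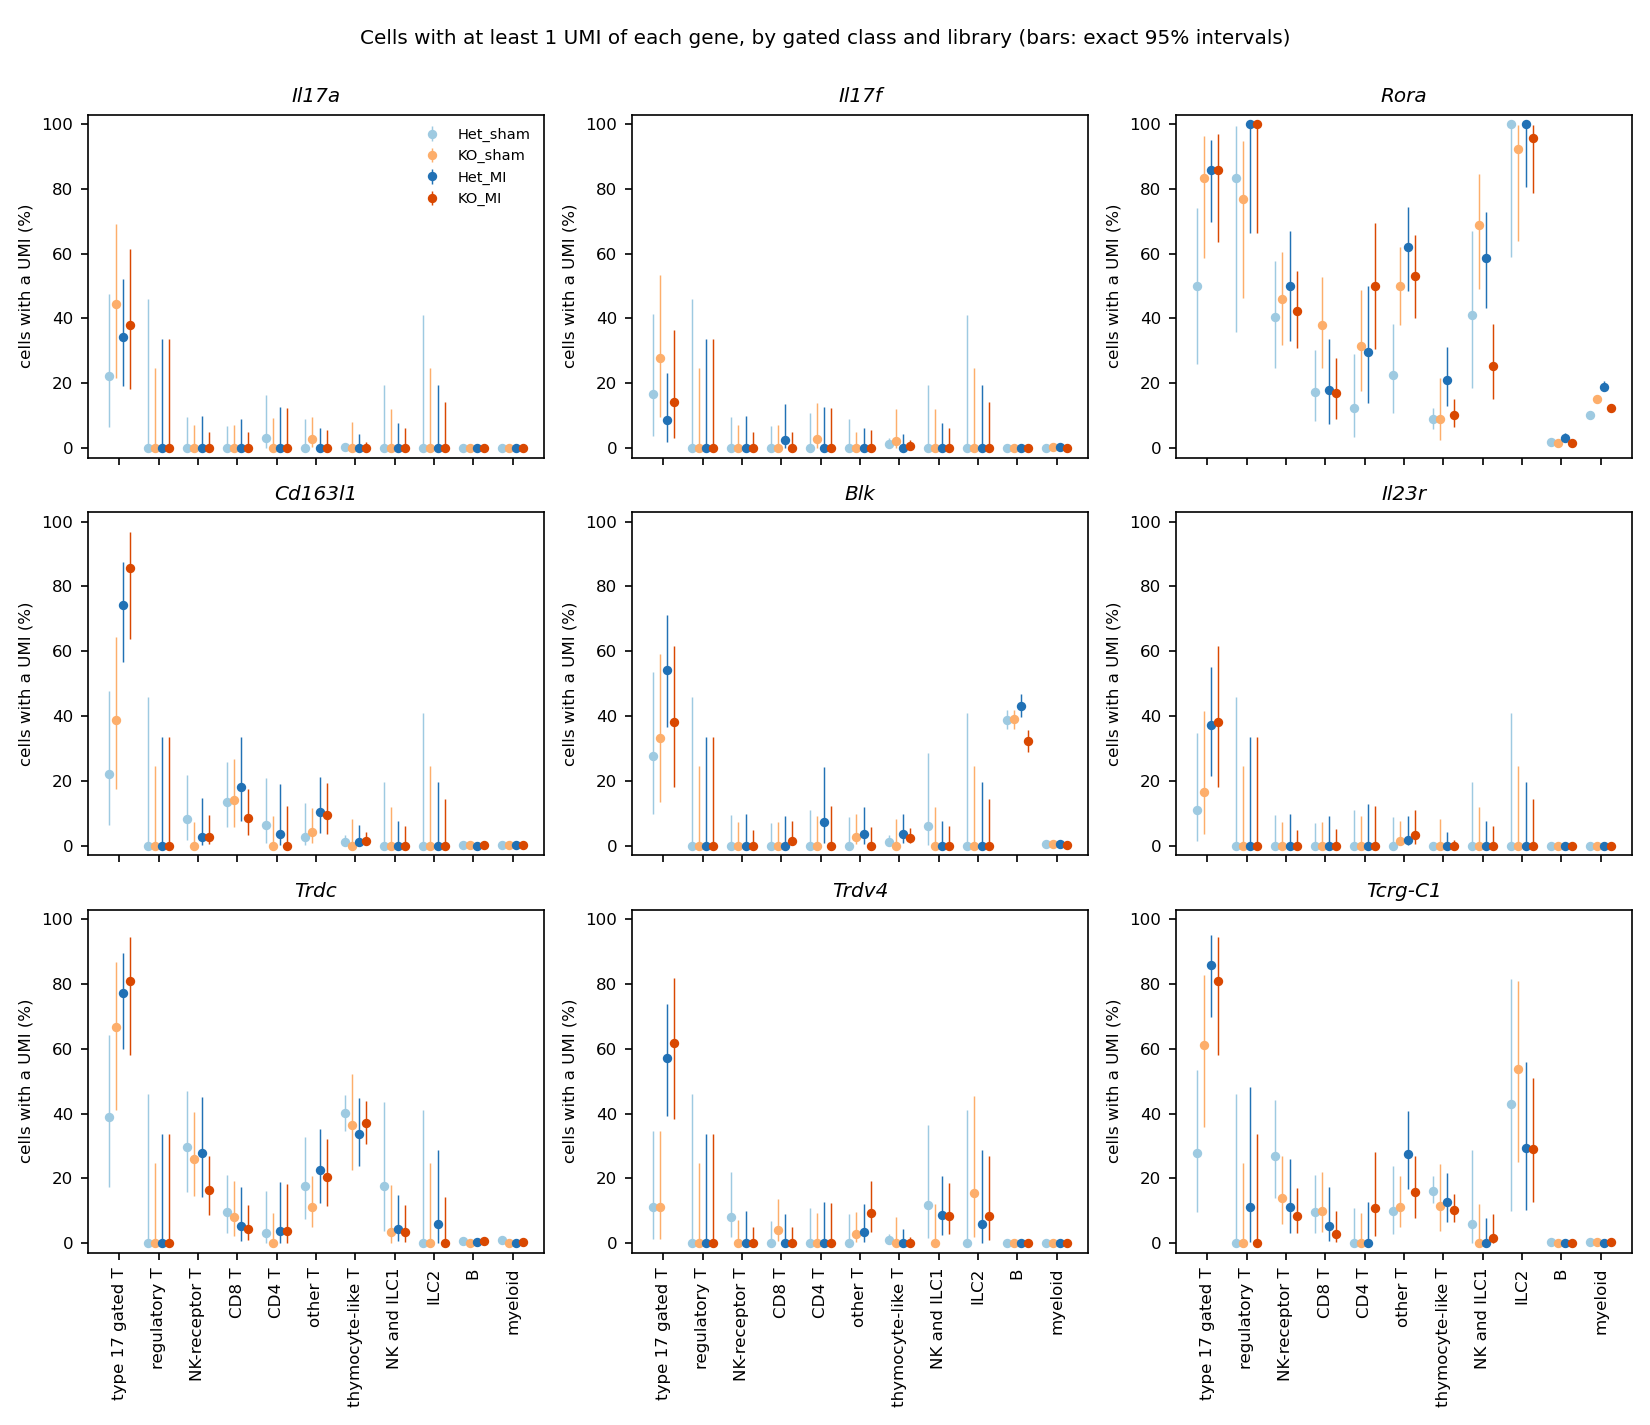
Percent of cells with at least 1 UMI of each of the 9 genes (vertical axis) in 11 marker-defined classes (horizontal axis), 1 point per library with its exact 95% interval. Il17a, Il17f, Il23r and Trdv4 stand out in type 17 gated T cells, Blk also in B cells (32.2% to 43.2%) and Rora also in ILC2 (92.3% to 100%).

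Type 17 gated T cells made up the largest share of mature T cells in Het_MI. The gate held 18 of 185 mature T cells in Het_sham (9.73%, interval 5.87 to 14.9), 18 of 241 in KO_sham (7.47%, 4.49 to 11.5), 35 of 204 in Het_MI (17.2%, 12.3 to 23.0) and 21 of 266 in KO_MI (7.89%, 4.95 to 11.8). The share in KO_MI was 0.460 times that in Het_MI (interval 0.255 to 0.813). The share in Het_MI was 1.76 times that in Het_sham (0.972 to 3.31), an interval that reaches below 1, and KO_MI over KO_sham was 1.06 (0.536 to 2.10). Per kept cell, Het_MI over Het_sham was 2.06 (1.14 to 3.86) and KO_MI over Het_MI was 0.429 (0.237 to 0.757). The gate depends on depth. With cells thinned to 2000 UMIs before gating, Het_MI over Het_sham became 5.5 and KO_sham over Het_sham 3.15, with 4 gated cells left in Het_sham. Fewer cells of a type and a different number of other cells cannot be told apart from such shares.

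The gate was not uniform. In the sham libraries 13 of 18 gated cells of each genotype carried 5830411N06Rik (Scart2), a scavenger receptor gene known from IL-17-producing gamma-delta T cells of the V gamma 4 type, against 5 of 35 in Het_MI and 2 of 21 in KO_MI. Cd8a or Cd8b1 was found in 10 and 6 of the 18 gated cells of Het_sham and KO_sham and in 2 cells of each infarct library. Summed over both genes, CD8 RNA stood at 442, 315, 139 and 49.7 CPM in the gated cells. The genes of the type 1 list (Tbx21, Ifng, Eomes, Cd27, Gzmb, Ccl5 and Nkg7) summed to 520, 280, 194 and 268 CPM there, with 6, 5, 4 and 1 of 7 detected and Gzmb at 0 in each library. The part of these cells in the sham values was not tested. With 5830411N06Rik left out of the gate, an alternative chosen after seeing the data, 9 of 185, 11 of 241, 30 of 204 and 20 of 266 cells passed. The share of Het_MI was then 3.02 times that of Het_sham, KO_MI over KO_sham was 1.65, and KO_MI over Het_MI was 0.511.

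The median gated cell contained 1 of the 9 genes in Het_sham, 4.5 in KO_sham and 6 in each infarct library. At least 5 of the 9 genes were detected in 5 of 18, 9 of 18, 26 of 35 and 18 of 21 gated cells. Depth ran the other way, with medians of 10638.5, 7184.5, 4790 and 4247 UMIs in the gated cells of Het_sham, KO_sham, Het_MI and KO_MI. Of 20 gated cells with CD8 RNA, 16 contained 0 or 1 of the 9 genes.

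Il17a encodes the founding IL-17 cytokine. Its UMIs in mature T cells numbered 37 in Het_sham, 62 in KO_sham, 51 in Het_MI and 13 in KO_MI, in 5, 10, 12 and 8 cells. Those are levels of 24.9, 36.2, 35.5 and 7.66 CPM, so 3 libraries lay close together and KO_MI was low. On the log2 scale, the ratio of KO_MI to Het_MI was -2.21 (interval -3.22 to -1.31) and that of KO_MI to KO_sham was -2.24 (-3.23 to -1.36). Het_MI over Het_sham was 0.51 (-0.13 to 1.16) and KO_sham over Het_sham 0.54 (-0.07 to 1.17). A single cell held 59.5% of the Het_sham UMIs, and without the top cell of each library these last values became 1.39 and 1.44.

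Il17a differed between the infarct libraries in UMIs per positive cell more than in the share of positive cells. In the type 17 gate, 4 of 18, 8 of 18, 12 of 35 and 8 of 21 cells had a UMI (22.2%, 44.4%, 34.3% and 38.1%). The median positive cell had 5.5 UMIs in Het_sham, 6 in KO_sham, 3 in Het_MI and 1.5 in KO_MI, and the highest cell had 22, 15, 13 and 3. Within the gate the log2 ratio of KO_MI to Het_MI was -0.97 (-1.97 to -0.07).

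Where Il17a lay outside the gate bears on the low value of KO_MI. Over all kept cells the 4 libraries held 63, 63, 63 and 46 Il17a UMIs. In KO_MI 65.2% of them (30 UMIs in 5 droplets, 14 in the highest) were in droplets kept out of the lymphoid classes, against 19.0% in Het_sham, 0% in KO_sham and 19.0% in Het_MI. Of those 5 droplets, 4 had at least 2 Cd3 UMIs and 4 were over the myeloid limit. Without any exclusion on myeloid UMIs, an alternative chosen after seeing the data, the log2 ratio of KO_MI to Het_MI was -1.53 and that to KO_sham was -1.55, while Het_MI over Het_sham turned to -0.46 and KO_sham over Het_sham to -0.44.

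Il17f, the closest relative of Il17a, was a gene of few cells. Its UMIs in mature T cells numbered 26, 32, 8 and 4 in Het_sham, KO_sham, Het_MI and KO_MI, in 3, 6, 4 and 3 cells. Both sham libraries were high and both infarct libraries low. The log2 ratio was -1.65 (upper bound -0.47) for Het_MI over Het_sham and -2.99 (-4.95 to -1.49) for KO_MI over KO_sham, and with 12 UMIs in the infarct libraries together no ratio was taken between them. These values rest on few cells, since 1 cell gave 61.5% of the Het_sham UMIs and 34.4% of those in KO_sham. As with Il17a, most Il17f UMIs of KO_MI lay outside the T cell classes, and 53 of its 79 UMIs were in 3 cells that passed no gate. A cell with 31 of them had 9 Rora and 2 Kit UMIs, and a cell with 21 had 2 Il17a UMIs and 1 each of Il7r, Tcrg-C1 and Trac. Neither had a Cd3e or Trdc UMI.

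Rora was low in Het_sham and similar in the other libraries. In mature T cells it had 130, 388, 418 and 372 UMIs (87.5, 227, 291 and 219 CPM) in 27.6%, 47.7%, 52.9% and 44.4% of cells. The log2 ratio was 1.73 (1.45 to 2.03) for Het_MI over Het_sham, -0.05 (-0.26 to 0.16) for KO_MI over KO_sham and 1.37 (1.08 to 1.67) for KO_sham over Het_sham. In the type 17 gate the levels were 184, 459, 740 and 765 CPM, so that both infarct libraries were highest and KO_MI over Het_MI was 0.05 (-0.37 to 0.46). The step between sham libraries was widest in other T cells, those that passed none of the type 17, regulatory (Foxp3), NK receptor, CD8 and CD4 gates. NK receptor gate genes were not absent there, with 8, 11, 12 and 9 UMIs in sum. Rora stood at 85.2 CPM in these cells of Het_sham and at 407, 426 and 442 CPM in KO_sham, Het_MI and KO_MI. The 4 ILC2 genes (Gata3, Il1rl1, Il13 and Il5) summed to 115, 349, 659 and 653 CPM in those same cells, with Il1rl1 and Il5 at 0 in Het_sham. In the type 17 gate the same genes summed to 32.2, 215, 59.6 and 59.6 CPM, with Il13 at 0 in all 4 libraries. The part of ILC2-type RNA in the Rora values was not tested. No Rora level here separates the gene from Gm15511, which lies on the opposite strand within it, because the strand handling of the counting is not given in the sources used here.

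Il23r encodes the subunit that makes T cells responsive to IL-23. It had 45 UMIs in all kept cells, too few for a ratio. In the type 17 gate 2 of 18, 3 of 18, 13 of 35 and 8 of 21 cells had a UMI (11.1%, 16.7%, 37.1% and 38.1%), so both infarct libraries were higher than both sham libraries. At a common depth of 2000 UMIs per cell these became 0 of 18, 0 of 18, 5 of 35 (14.3%) and 3 of 21 (14.3%), and by the same limit of 3 counts, 0 of 18 cells allows a share of up to 16.7%.

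Blk in T cells is known from IL-17-producing gamma-delta T cells. Mature T cells contained 9, 12, 45 and 10 Blk UMIs in Het_sham, KO_sham, Het_MI and KO_MI, with Het_MI alone high. Het_MI over Het_sham had a log2 ratio of 2.37 (1.32 to 3.59), and KO_MI over Het_MI one of -2.41 (-3.57 to -1.40). In the type 17 gate 5 of 18, 6 of 18, 19 of 35 and 8 of 21 cells had a UMI, and the level of KO_MI was again lower than that of Het_MI, at -1.19 (-2.41 to -0.12). In B cells the level of Blk was even, at 106, 107, 99.0 and 96.7 CPM.

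Cd163l1 (Scart1) encodes a scavenger receptor found on IL-17-producing gamma-delta T cells of the V gamma 6 type. Mature T cells held 51, 42, 144 and 93 UMIs, or 34.3, 24.5, 100 and 54.8 CPM, in 17, 17, 41 and 32 cells. Both infarct libraries were above both sham libraries. Het_MI over Het_sham had a log2 ratio of 1.55 (1.08 to 2.04), and KO_MI over KO_sham one of 1.16 (0.62 to 1.72). KO_MI over Het_MI was -0.87 (-1.26 to -0.49) in mature T cells and 0.20 (-0.26 to 0.66) within the type 17 gate, where 4 of 18, 7 of 18, 26 of 35 and 18 of 21 cells carried it. CD8 T cells had a UMI as well, in shares from 8.45% in KO_MI to 17.9% in Het_MI.

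Trdc marks the delta chain itself. It had 121, 129, 312 and 213 UMIs in mature T cells (81.4, 75.3, 217 and 126 CPM). The log2 ratio was 1.42 (1.11 to 1.73) for Het_MI over Het_sham, 0.74 (0.41 to 1.06) for KO_MI over KO_sham and -0.79 (-1.05 to -0.54) for KO_MI over Het_MI. Among type 17 gated cells 7 of 18, 12 of 18, 27 of 35 and 17 of 21 cells had a UMI, and the log2 ratio of KO_MI to Het_MI was 0.11 (-0.23 to 0.44). Outside the gate the pattern depended on the class. In T cells with NK receptors Trdc was highest in Het_sham (170 CPM) and lowest in KO_MI (33.5 CPM). In other T cells it stood at 62.3 and 65.1 CPM in Het_sham and KO_sham and at 176 CPM in both Het_MI and KO_MI. Gm43434 and Trdv5 overlap Trdc on the opposite strand.

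Trdv4, at chr14:54074905-54075515, is the delta variable segment used with V gamma 6 chains by gamma-delta T cells of fetal origin. Its UMIs in mature T cells numbered 9, 11, 63 and 39 in Het_sham, KO_sham, Het_MI and KO_MI, in 2.70%, 2.49%, 10.8% and 7.14% of cells. Both infarct libraries were high; the interval of Het_MI was 6.88% to 15.9% and that of Het_sham 0.883% to 6.19%. The log2 ratio was 2.86 (1.84 to 4.05) for Het_MI over Het_sham and 1.84 (0.85 to 2.95) for KO_MI over KO_sham. Within the type 17 gate 2 of 18 cells in each sham library had Trdv4 (11.1%), against 20 of 35 in Het_MI (57.1%) and 13 of 21 in KO_MI (61.9%). After thinning to 2000 UMIs the gated shares were 0 of 18, 1 of 18 (5.56%), 15 of 35 (42.9%) and 10 of 21 (47.6%). The order held although the sham cells were deeper. With 5830411N06Rik left out of the gate the shares were 22.2%, 18.2%, 66.7% and 65.0%. Gm30275 overlaps Trdv4 on the opposite strand.

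Tcrg-C1 followed Trdc. Mature T cells held 79, 70, 196 and 107 UMIs (53.2, 40.9, 137 and 63.1 CPM), with Het_MI alone far above the rest. The log2 ratio was 1.36 (0.98 to 1.76) for Het_MI over Het_sham, 0.63 (0.18 to 1.08) for KO_MI over KO_sham and -1.11 (-1.47 to -0.77) for KO_MI over Het_MI. Among type 17 gated cells 5 of 18, 11 of 18, 30 of 35 and 17 of 21 cells had a UMI. Tcrg-C1 is close in sequence to Tcrg-C2 and Tcrg-C3, so its reads may have been split among them. Tcrg-C2 had 23, 41, 40 and 28 UMIs in mature T cells and Tcrg-C3 had 1, 1, 0 and 0.

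Counted together, the genes were mostly higher after infarction in the Het background. A gene was called when its level in mature T cells differed at least 1.5-fold and it had at least 30 UMIs in the pair. In Het_MI over Het_sham 6 of the 8 measured members were higher, where 9.3% of all 7163 genes were, and 1 was lower, where 12.4% of all genes were. Their median log2 ratio was 1.48, against -0.04 for all genes. In KO_MI over KO_sham 4 of 7 were higher (7.48% of all genes) and 2 lower (10.9%), with a median of 0.63 against -0.05. Cd163l1, Trdc, Trdv4 and Tcrg-C1 passed in both genotypes, and these contrasts share no library. Without any myeloid exclusion the Het_MI over Het_sham ratio was smaller for Rora (1.11), Cd163l1 (0.96), Blk (1.78), Trdc (0.73), Trdv4 (1.78) and Tcrg-C1 (0.65), all still above 1.5-fold. In KO_MI over Het_MI 0 of 7 were higher (7.86% of all genes) and 6 were lower (13.9%), with Rora at -0.41 as the exception. KO_MI alone had almost no Y-linked RNA. Among cells with a Xist UMI and no Y-linked UMI, 1 member was lower in that contrast, and Trdv4 and Tcrg-C1 turned to 0.20 and 0.02, from 31 Het_MI cells. Without infarction, KO_sham over Het_sham had 1 of 6 higher, Rora, (6.97% of all genes) and 0 lower (11.1%).

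Inside the type 17 gate the infarct libraries of both genotypes had similar levels for most members. Of 7 members, 0 were higher and 2, Il17a and Blk, were lower in KO_MI over Het_MI, where 8.24% and 21.3% of 1383 genes were higher and lower, and the median was 0.02 against -0.13 for all genes. In Het_MI over Het_sham 7 of 8 were higher and Il17f was lower (24.5% and 17.6% of 1929 genes). In KO_MI over KO_sham 5 of 7 were higher and both cytokine genes were lower (10.6% and 18.7% of 1037 genes). KO_sham over Het_sham had 5 of 6 higher and 0 lower (16.4% and 14.2% of 1593 genes). The contrasts that share a library are not independent of each other.

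**Figure D2:**
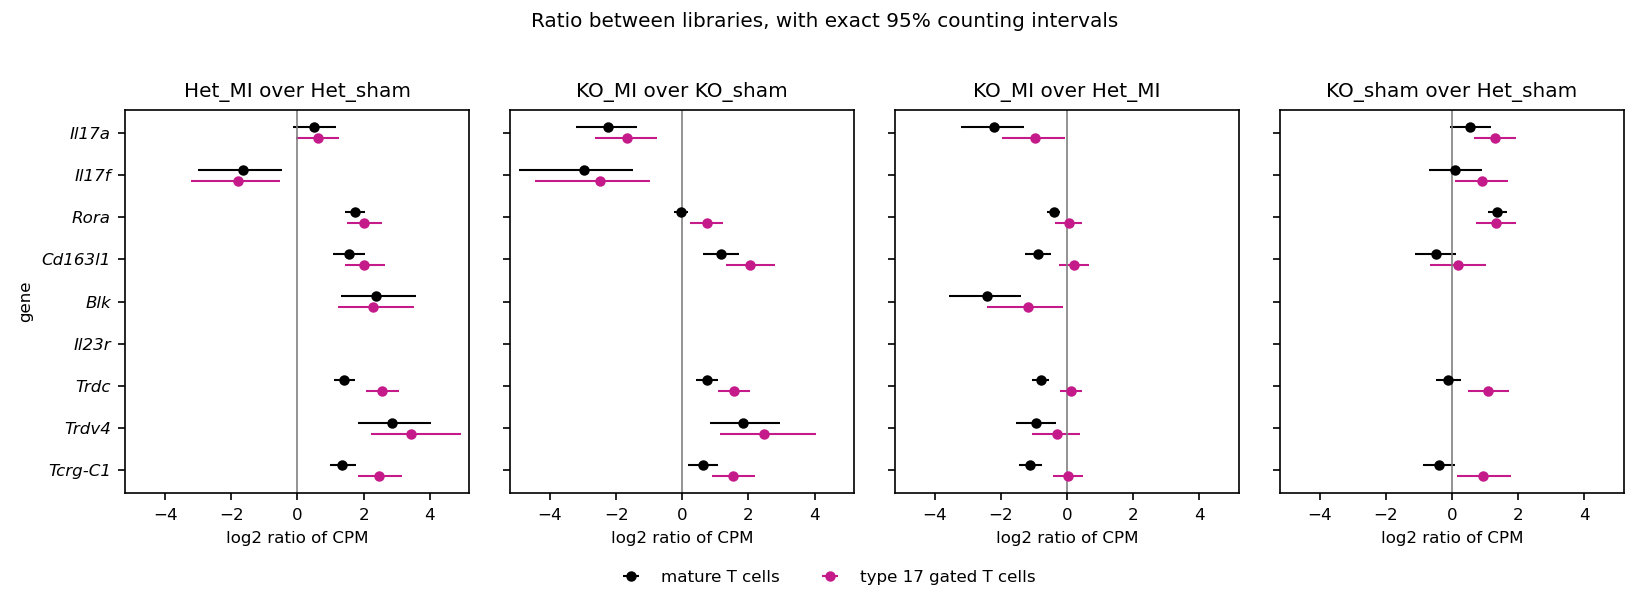
Log2 ratio of CPM between libraries (horizontal axis) for each gene (vertical axis) in mature T cells (black) and type 17 gated T cells (magenta), with exact 95% counting intervals; genes with under 30 UMIs in a pair have no point. In KO_MI over Het_MI the black points other than Rora lie at -0.79 or lower, whereas the magenta points of Rora, Cd163l1, Trdc and Tcrg-C1 lie between 0.02 and 0.20.

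Single cells showed which genes occurred together. Of the 32 gated cells with Il17a, 31 had Trdc, 30 had Tcrg-C1, 24 had Cd163l1, 16 had Trdv4 and 10 had Scart2. Of the 14 cells with Il17f, 11 also had Il17a, 9 had Scart2 and 3 had Trdv4. Scart2 and Trdv4 were not found in the same cell: 33 gated cells had Scart2, 37 had Trdv4 and 0 had both, whereas 34 of the 37 Trdv4 cells had Cd163l1 and 36 had Trdc. In the sham libraries all 8 Il17f cells had Scart2, and in Het_MI 0 of 3 did. Only 13 of the 63 gated cells with Trdc had a UMI of Trac, the alpha chain constant gene, which 29 of the 92 gated cells contained.

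Regulators of the type 17 program included Maf, a transcription factor gene with 22, 32, 81 and 43 UMIs in the gated cells. Zbtb16, the factor of innate-like T cells, had 2, 4, 24 and 11 UMIs there. Of the 10 regulators listed, 7 had enough UMIs in mature T cells, of which 4 were higher and 1 lower in Het_MI over Het_sham (median 0.67), where 9.3% and 12.4% of all genes were. In KO_MI over Het_MI 0 were higher and 2 lower (median -0.40), where 7.86% and 13.9% of all genes were. Zbtb16 had log2 ratios of 2.08 (1.11 to 3.18) and -1.15 (-1.93 to -0.40) in those contrasts.

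Receptors for the signals that such cells receive made up the next list. Of 12 listed, 6 of 10 measured were higher and 0 lower in Het_MI over Het_sham (median 0.60; 9.3% and 12.4% of all genes). In KO_MI over Het_MI 0 of 11 were higher and 7 lower (median -0.79), against 7.86% and 13.9% of all genes. Il1r1, the IL-1 receptor and a gate gene, had 5, 6, 33 and 16 UMIs in mature T cells. Il7r, the receptor for the survival factor IL-7, had 200, 285, 290 and 198, and its log2 ratio in KO_MI over Het_MI was -0.79 (-1.06 to -0.53). Cxcr6, a chemokine receptor of tissue lymphocytes, had 55, 58, 106 and 148 UMIs in mature T cells and was higher in both infarct libraries. Its log2 ratio was 1.36 (0.92 to 1.83) for KO_MI over KO_sham and 0.24 (-0.13 to 0.61) for KO_MI over Het_MI.

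Of 12 further markers of IL-17-producing gamma-delta T cells, 8 of 11 measured were higher and 1, Scart2, was lower in Het_MI over Het_sham (median 1.31), against 9.3% and 12.4% of all genes. In KO_MI over KO_sham 2 of 10 were higher and 1, again Scart2, was lower (median 0.09), against 7.48% and 10.9% of all genes, so the lower count was near the background. Scart2 had 47, 57, 15 and 8 UMIs in mature T cells, with log2 ratios of -1.60 (-2.54 to -0.73) and -2.82 (-4.10 to -1.74). Tmem176a and Tmem176b, a pair of ion channel genes of type 17 cells, had 35, 44, 132 and 98 and 28, 38, 110 and 78 UMIs in the gated cells. S100a4, a calcium-binding protein gene of effector lymphocytes, had 239, 228, 512 and 295.

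The 7 type 1 genes served as a contrast list. In KO_MI over Het_MI 4 of 7 were higher and 1 lower in mature T cells, against 7.86% and 13.9% of all genes. Their median log2 ratio was 0.86, and that of the 7 members measured in this contrast was -0.93. T cells with NK receptors made up 17.6% of mature T cells in Het_MI and 27.4% in KO_MI, and CD8 T cells 19.1% and 26.7%; the part of these shares in the type 1 values was not tested. In Het_MI over Het_sham 0 were higher and 1 was lower (median -0.15), against 9.3% and 12.4% of all genes. Trac, Trbc1 and Trbc2, the alpha-beta constant genes, had a median of 0.10 in KO_MI over Het_MI and 0 of 3 past 1.5-fold. In the gated cells Trac had 53, 19, 16 and 6 UMIs, highest in Het_sham.

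Genes with a profile close to that of the 9, taken over 30 class and library units of at least 20 cells and among 10180 other genes, were Mturn (Pearson r 0.885 with their mean profile), Prelid2 (0.878), Trgv2 (0.876), Slc22a15 (0.868) and Sdc1 (0.851). Trgv2 is a gamma variable segment and Sdc1 encodes syndecan, a heparan sulfate proteoglycan. The units share libraries and differ in depth, so these values are descriptions.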

How the data were processed

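Single-cell 3' RNA counts (10x v3) came from 4 libraries, 1 per group. The authors deposited unnormalized UMI counts, 1 matrix per library, and the deposited gene and barcode tables (type other) hold names only. The matrices were written by Cell Ranger 4.0.0, per the file headers, whereas Cell Ranger 6.1.1 and Seurat 4, with builds mm10 and GRCm38, are named per the submitters' processing notes. No source used here gives the cell calling settings or the strand handling.

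Cells passed the filters in the text and were gated by marker UMIs. A droplet with over 0.5% myeloid UMIs, or at least 2 mast or basophil UMIs, was not called lymphoid. T cells needed 2 UMIs of Cd3d, Cd3e and Cd3g, B cells 3 of a list of B cell genes, and ILC2 3 of Gata3, Il1rl1, Il13 and Il5. Cells passing both lymphoid gates were set apart as mixed. Doublets were otherwise removed only in an alternative, by Scrublet scores at the rate expected from loading, because the automatic threshold called 139, 0, 1 and 6 cells. UMIs were summed per class and library and scaled to CPM by the class total. Shares carry Clopper-Pearson intervals, levels Poisson intervals and ratios conditional binomial intervals. The ratio intervals were tried on simulated Poisson counts, the model they assume. That trial cannot show their coverage where many UMIs come from 1 cell, as for Il17a and Il17f. A ratio needed at least 30 UMIs in the pair. With 1 library per group no test was run, and the spread between animals is unknown.

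All 9 members were named, with up to 3 genes per list by UMIs in gated cells and the 5 genes closest in profile, as log2(CPM + 10). Other genes named for a count or contrast were chosen after their values were seen. The members and lists were chosen with earlier results of these data known. Python 3.11.15 with scipy 1.17.1, and edgeR 4.0.16 and DESeq2 1.42.0 for scaling factors only, were used. Positions are from GENCODE for GRCm38 and promoter windows from RefSeq. Some genes of the gates are not reported here.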

Additional observations from a re-analysis of the deposited data

Results flagged for a closer look

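Il17a in mature T cells had ratios of opposite sign in the 2 genotypes. The log2 ratio of infarct to sham was 0.51 in Het and -2.24 in KO, a difference of -2.75 that was not tested, since each group is 1 library. The interval of the Het value, -0.13 to 1.16, includes 0, and without any myeloid exclusion that value was -0.46, the sign of the KO value, so opposite directions are not shown. Rora differed in the same contrast, at 1.73 in Het and -0.05 in KO, a difference of -1.78 that was not tested either. The KO value is near 0, and its interval is -0.26 to 0.16.

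The other entries are signals outside the T cell classes. In KO_MI 53 Il17f UMIs lay in cells that passed no gate, 31 and 21 of them in 2 cells. In the same library 30 Il17a UMIs lay in droplets kept out of the lymphoid classes, against 12 in Het_sham, 0 in KO_sham and 12 in Het_MI.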

How the results depend on the processing

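Over 28 member ratios in mature T cells, 340 alternative values were computed, of which 310 stayed within the counting interval. The sign differed in 15, of which 2 started from a ratio past 1.5-fold. These 2, both with only cells that had a Xist UMI and no Y-linked UMI, were Tcrg-C1 at 0.0237 and Trdv4 at 0.20 for KO_MI over Het_MI, where 31 Het_MI mature T cells were left. With that setting 3 members were higher in Het_MI over Het_sham, 1 was lower in KO_MI over Het_MI, and 0 were lower in Het_MI over Het_sham and in KO_MI over KO_sham. Thinning to 2000 UMIs also left 0 lower in both of these, where 5 and 4 members reached 30 UMIs in place of 8 and 7, and gave shares of type 17 gated T cells 5.5 times as high in Het_MI as in Het_sham and 3.15 times as high in KO_sham as in Het_sham, with 4 gated cells left in Het_sham. In KO_sham over Het_sham 2 members were higher with a myeloid limit of 0.25%, with 1 Cd3 UMI, with TMM and with median-of-ratios factors, and 3 without the top cell of each library. In that contrast 1 member was lower with a myeloid limit of 1%, and 2 without any myeloid exclusion (chosen after seeing the data). Scaling moved the centre of all genes by 0.049 to 0.078. No paired analysis was possible because each group is 1 library, and no replicate could be left out. Il17a turned to -0.46 in Het_MI over Het_sham and to -0.44 in KO_sham over Het_sham without any myeloid exclusion. Depth limits Il23r, whose positive gated cells numbered 8 after thinning and 26 before.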

Other observations

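Genes that encode the signals upstream of IL-17 were read in the myeloid cells of the same libraries. Il1b, whose product acts on Il1r1, was abundant and even, with levels of 771 and 829 CPM in the sham libraries of Het and KO and of 816 and 830 CPM in their infarct libraries. Values below keep the order Het_sham, KO_sham, Het_MI, KO_MI. Il23a, the subunit particular to IL-23, was rare, at 0.972, 1.57, 2.74 and 2.45 CPM in 17, 43, 46 and 47 cells. Il6 stood at 3.38, 7.78, 8.96 and 13.9 CPM, with KO_MI highest. Il12b, the shared IL-12 and IL-23 subunit, had 0, 8, 13 and 20 UMIs. Ccl20, the ligand of Ccr6, had 0 UMIs in myeloid cells of each library. Il17ra, the receptor subunit through which IL-17 acts, stood at 69.1, 52.5, 55.1 and 48.4 CPM in myeloid cells, and its partner Il17rc had 3 to 5 UMIs per library.

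Other products of lymphocytes differed from Il17a. In mature T cells Areg, a growth factor of repair, had 9, 256, 471 and 392 UMIs in 5, 15, 11 and 21 cells, and Csf2, which encodes a myeloid growth factor, had 20, 96, 52 and 12. In the type 17 gated cells these genes had 2, 5, 0 and 0 and 19, 1, 1 and 0 UMIs. Il22 had 9 UMIs in 1 gated cell of Het_sham and 0 in the others.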
